A study of Rattus norvegicus and Mus musculus and Macaca mulatta with 84 samples.

Results

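Matrix proteases and their inhibitors were followed in liver RNA from diabetic rats and from mice given LNA-29, a locked nucleic acid directed against the microRNA miR-29. The genes were taken by symbol: Mmp, Timp, Adam, Adamts or Adamtsl followed by a digit. That rule found 75 of the 32754 features of the rat table and 84 of the 48440 features of the mouse table, with 71 symbols in both. The rat genes were 22 matrix metalloproteinases (Mmp), 4 tissue inhibitors (Timp), 26 disintegrin metalloproteinases (Adam), 19 secreted Adam-like proteases with thrombospondin repeats (Adamts) and 4 related proteins without a protease domain (Adamtsl). The mouse table held 23, 4, 33, 19 and 5 of them. A mean normalised count of at least 10 over the libraries of a table was asked of every gene tested, and 44 rat and 44 mouse genes of these families met it, 38 of them the same symbols.

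Matrix metalloproteinases are zinc enzymes that cut collagens, laminins, elastin and other matrix proteins, and also free growth factors and cytokines held in the matrix. Timp proteins bind them and block the active site, so the balance of the 2 sides sets how fast matrix is removed. Adam proteins sit in the cell membrane and shed the outer part of receptors and ligands such as TNF, while Adamts enzymes are secreted and trim procollagen, proteoglycans or von Willebrand factor. In liver, stellate cells, macrophages, endothelium and arriving neutrophils are known sources of many of these proteins, and fibrosis is linked to their balance.

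The rats were of the UCD-T2DM strain, which becomes diabetic spontaneously, and the labels place their livers by the time since diabetes appeared: 5 prediabetic rats, 4 rats at 2 weeks, 5 rats at 3 months and 6 rats at 6 months. The rats with diabetes are not stated to be of 1 age, so stage and age cannot be told apart. The mice were C57BL/6J, with 5 livers after LNA-29 and 6 control livers, and the control agent, the dose, the duration of treatment, the age and the sex were not given in the sources used here. All libraries were made from polyadenylated RNA of whole liver, and 53 small RNA libraries among the 84 samples of the series were not used.

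The normalised counts of a library summed to 37.6 to 49.9 × 1e6 in the rats and 43.3 to 52.8 × 1e6 in the mice. The tissue label held in every group: the hepatocyte markers together gave 4.23 to 9.59 × 1e6 normalised counts per rat library and 4.74 to 8.49 × 1e6 per mouse library. The Y-linked gene Eif2s3y was read in all 20 rat livers. In all 11 mouse livers it was at 0 and Xist was read. By these genes the rats were male and the mice female. Nothing in the labels says that replicates came from separate extractions or runs, so p-values measure the spread between these livers however it arose. No library was left out of the results below.

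Against prediabetic rats, no protease or inhibitor gene passed the test at 2 weeks, 15 of 44 passed at 3 months and 11 of 44 at 6 months. The test was limma on log2(normalised count + 1) with Benjamini-Hochberg adjustment over all 13640 genes tested, and a gene was called at an adjusted p under 0.05. At 2 weeks the share called was 0% of these genes and 0% of all genes (limma), and 3 of the 44 and 1077 of all 13640 had an unadjusted p under 0.05. At 3 months 34.1% were called beside 16.5% of all genes: 11 rose (25% beside 7.76%) and 4 fell (9.09% beside 8.72%). At 6 months 25% were called beside 21.1% of all genes, with 9 that rose (20.5% beside 11.0%) and 2 that fell (4.55% beside 10.0%). The filter is a mean over all stages, so these shares are partly set by it. Mmp3, Mmp8 and Mmp9 passed it through the later livers and Mmp27 through the earlier ones. With a mean of at least 50, 8 rose and 3 fell at 3 months, and 7 rose and 1 fell at 6 months. Over all 11419 genes then tested, 2022 and 2485 were called. By family, 4 of 14 Mmp genes rose and 2 fell at 3 months, 1 of 3 Timp genes rose, 1 of 12 Adam genes rose and 1 fell, 4 of 12 Adamts genes rose and 1 fell, and 1 of 3 Adamtsl genes rose. At 6 months the numbers were 3 and 2 for Mmp, 1 and 0 for Timp, 0 and 0 for Adam, 4 and 0 for Adamts and 1 and 0 for Adamtsl. The median log2 change of the 44 genes was 0.41 at 3 months and 0.36 at 6 months, beside 0.02 and 0.01 over all genes. Both stages were set against the same 5 prediabetic livers, so each gene's values at the stages are given side by side. The count at 3 months rested in part on 3-month replicate 1: without it 9 of the 15 genes were called, and over all genes 1456 in place of 2248. Prediabetic replicate 2 correlated least with its own group of all rat livers (mean 0.959). Without it 10 of these genes were called at 3 months and 11 at 6 months. Over all genes the counts were then 2078 in place of 2248 and 3567 in place of 2875.

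**Figure D1:**
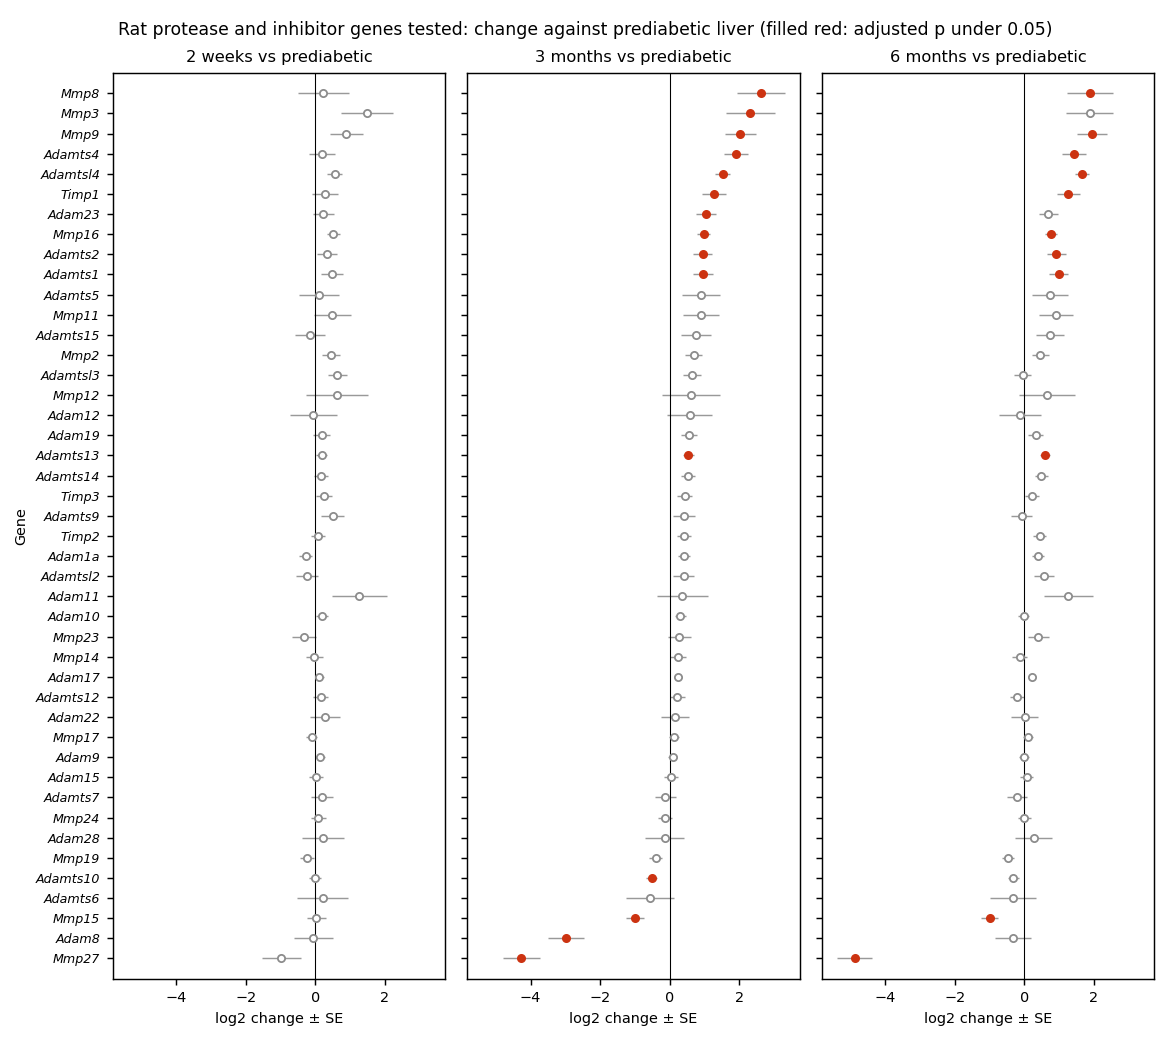
Log2 change with its standard error (x axis) for each of the 44 rat protease and inhibitor genes tested (y axis, ordered by the 3-month value), at 2 weeks, 3 months and 6 months against prediabetic liver. Filled red points mark an adjusted p under 0.05: none at 2 weeks, 15 at 3 months and 11 at 6 months.

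Among the inhibitors, Timp1 (ENSRNOG00000010208) was the gene that rose. Timp1 binds most matrix metalloproteinases and is induced by inflammatory cytokines. The prediabetic livers had 68.1, 109, 76.2, 46.2 and 72.6 normalised counts, the 2-week livers 98.2, 55.1, 96.1 and 112, the 3-month livers 203, 169, 143, 289.6 and 113, and the 6-month livers lay between 104 and 328 (median 159, n = 6). All 5 livers at 3 months were above the highest prediabetic liver and above every 2-week liver, while at 6 months replicates 2 and 5 (327 and 328) were far above the rest and 2 of 6 livers lay within the prediabetic range. Timp1 rose at 3 months (log2 change 1.27 ± 0.34, adjusted p = 0.017, where ± is the standard error here and in the other log2 values) and at 6 months (log2 change 1.27 ± 0.33, adjusted p = 0.0108). The 3-month call ended without prediabetic replicate 4 (adjusted p = 0.051). In bulk liver, more RNA per cell and more cells of a type that makes it cannot be told apart.

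Timp2, which blocks gelatinase A and also takes part in its activation at the cell surface, had 231 ± 38.9 normalised counts at 3 months (mean ± SD, n = 5) and 237 ± 53.6 at 6 months (n = 6), beside 175 ± 39.1 before diabetes (n = 5). It did not pass the test at either stage (log2 difference 0.41 ± 0.19, adjusted p = 0.149, and log2 difference 0.44 ± 0.18, adjusted p = 0.0966). Without prediabetic replicate 2 it was called at 6 months (adjusted p = 0.0457). Timp3, the inhibitor that stays bound to the matrix and also blocks Adam17, did not pass either (0.43, adjusted p = 0.171 at 3 months, and a log2 difference of 0.22 at 6 months). Timp4 stayed under the filter, between 0.868 and 11.4 normalised counts over the 20 livers. Timp1, Timp3 and Timp4 each lie inside an intron of a synapsin gene on the other strand, and whether strand was used in counting was not given in the sources used here. A part of synapsin RNA in these counts was not tested.

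Neutrophil collagenase Mmp8 (ENSRNOG00000009907) and gelatinase B Mmp9, both stored in neutrophil granules, rose at 3 and 6 months, and so did a set of neutrophil markers. Mmp8 had 7.67, 8.67, 10.9, 6.36 and 4.11 normalised counts in prediabetic livers, 6.08, 9.10, 11.2 and 8.92 at 2 weeks and 356, 42.2, 23.05, 19.5 and 41.8 at 3 months, and lay between 9.81 and 90.7 (median 36.2, n = 6) at 6 months. The 3-month values all exceeded every earlier one and ranged widely, with replicate 1 far above the other livers, and 2 of the 6 livers at 6 months were within the prediabetic range. Mmp8 rose at 3 months (log2 change 2.62 ± 0.69, adjusted p = 0.0144). At 6 months the call was marginal (log2 change 1.89 ± 0.66, adjusted p = 0.0469) and ended with a pseudocount of 10 (adjusted p = 0.0918), with no filter on low counts, with no variance trend and without any of 8 of the 11 livers compared (adjusted p up to 0.108).

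Mmp9, which cuts denatured collagen and type IV collagen, had 8.35, 14.9, 12.3, 4.45 and 8.05 normalised counts before diabetes, 22.97, 15.3, 15.2 and 17.5 at 2 weeks, 108, 37.1, 19.9, 48.6 and 24.4 at 3 months, and lay between 11.8 and 66.9 (median 43.6, n = 6) at 6 months. All 5 livers at 3 months and 5 of 6 at 6 months were above the highest prediabetic liver, and all 4 livers at 2 weeks were already above it. Mmp9 rose at 3 months (log2 change 2.03 ± 0.45, adjusted p = 0.00557) and 6 months (log2 change 1.94 ± 0.43, adjusted p = 0.00398), and no omission of a liver or other setting in which it was tested ended either call.

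Of 10 neutrophil markers, 4 passed the filter, and all 4 rose at both stages: S100a8 by 2.97 and 2.99, S100a9 by 3.22 and 2.91, Cxcr2 by 2.59 and 1.92 and Csf3r by 2.28 and 2.04 on the log2 scale. Over all genes 7.76% and 11.0% rose. The filter is a mean over all stages, so low markers could pass it through the later livers where they were high. The count of 4 may thus be partly set by the filter. The markers summed to 54.2 to 133 normalised counts in prediabetic livers, 93.0 to 131 at 2 weeks, 237 to 2941 at 3 months and 157 to 1908 at 6 months, and Ltf was listed at 0 in every rat library. The liver with the highest sum, 3-month replicate 1, had the highest Mmp8 (356) and Mmp9 (108) of all 20, and 6-month replicate 3, next in the sum, had the next highest Mmp8 (90.7). Other livers departed from the sums for Mmp9: 3-month replicate 4 had 48.6 with the lowest sum of its group (237), and 6-month replicate 2 had 55.7 with a sum of 220.4. At 2 weeks all 4 livers were above the prediabetic range of Mmp9, while their marker sums lay within the prediabetic range. For Timp1 the 2 highest livers were 6-month replicates 5 and 2, whose neutrophil sums were 1063 and 220.4. Without 3-month replicate 1, Mmp8 remained called at 3 months (1.91, adjusted p = 0.0374), as did Mmp9 (1.67, adjusted p = 0.0181). The part of neutrophil number in these changes was not tested.

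**Figure D2:**
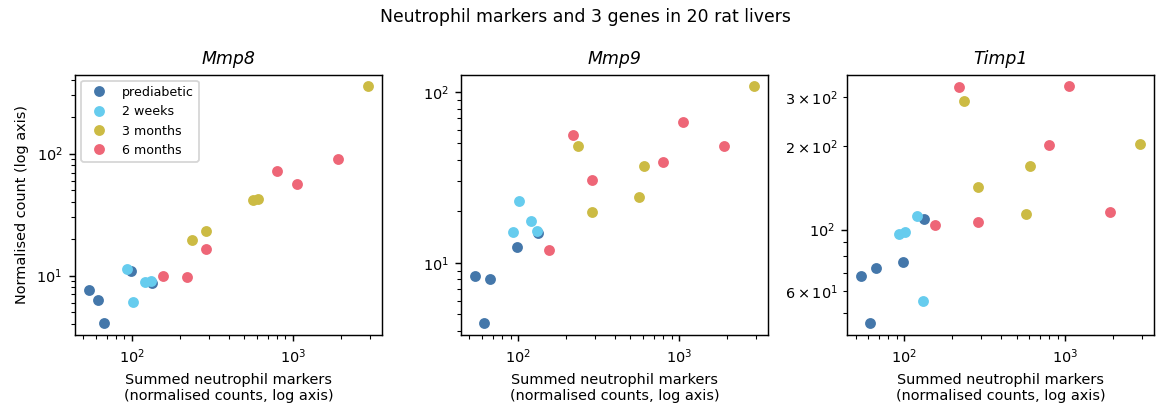
Normalised counts of Mmp8, Mmp9 and Timp1 (y axes, log scale) against the summed normalised counts of 10 neutrophil markers (x axis, log scale), each point being 1 of 20 rat livers coloured by stage. Mmp8 is highest (356) in the 3-month liver with the highest marker sum (2941), while the 2 highest Timp1 livers have marker sums of 220.4 and 1063.

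Stromelysin Mmp3 activates other pro-metalloproteinases and cuts proteoglycans. Its normalised counts were 4.26, 0, 3.64, 2.73 and 1.03 before diabetes, 6.95, 2.61, 8.66 and 13.5 at 2 weeks, 30.2, 21.2, 5.53, 43.5 and 1.78 at 3 months, and between 3.94 and 27.5 (median 8.09, n = 6) at 6 months. The gene was low throughout, and 1 of 5 livers at 3 months lay within the prediabetic range. Mmp3 rose at 3 months (log2 change 2.31 ± 0.71, adjusted p = 0.0311), a value that was 1.10 with a pseudocount of 10, and the call ended when prediabetic replicate 2 or 5 or 3-month replicate 1, 2 or 4 was left out (adjusted p up to 0.0862) and with the 2 compared groups only (0.0739). It did not pass at 6 months (log2 difference 1.87 ± 0.68, adjusted p = 0.0558).

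Macrophage elastase Mmp12 did not pass in the rats. Its counts were 37.5, 26.02, 44.6, 10.9 and 11.3 before diabetes, 91.2, 11.7, 30.3 and 44.7 at 2 weeks, 22.8, 26.4, 13.8, 450.3 and 12.4 at 3 months, and between 12.6 and 188 (median 27.5, n = 6) at 6 months. A single 3-month liver, replicate 4, held 450.3 while the other 4 were within the prediabetic range, and the log2 difference at 3 months was 0.62 with it and -0.30 without it. Replicate 4 had the lowest sum of Kupffer cell and macrophage markers at 3 months, 20427 normalised counts. The part of macrophages in its Mmp12 level was not tested.

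Mmp27 (ENSRNOG00000040208), a little studied metalloproteinase, fell to or near 0. Its counts were 17.9, 19.5, 23.6, 33.6 and 64.6 in prediabetic livers and 40.8, 7.80, 5.19 and 20.8 at 2 weeks, against 0, 0, 0, 0.812 and 3.55 at 3 months, and all 6 livers at 6 months were listed at 0. No liver at 3 or 6 months reached the lowest earlier liver. The log2 change was -4.26 ± 0.53 (adjusted p = 8.2e-05) at 3 months and -4.87 ± 0.51 (adjusted p = 6.92e-06) at 6 months. With a pseudocount of 10 these were -1.85 and -1.96, still called, so the size rests on the pseudocount and no fold is given. Mmp27 passed the filter through the prediabetic and 2-week livers, just as Mmp3, Mmp8, Mmp9 and Mmp11, with prediabetic means of 2.33, 7.55, 9.60 and 7.63, passed it through the later stages.

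Mmp8 and Mmp27 are direct neighbours among protein-coding genes of rat chromosome 8, inside a row of 10 metalloproteinase genes that runs Mmp13, Mmp12, Mmp1b, Mmp3, Mmp1, Mmp10, Mmp8, Mmp27, Mmp20 and Mmp7 in the RefSeq annotation of assembly GRCr8. At 3 months Mmp8 and Mmp3 rose and Mmp27 fell. Mmp12 did not pass, and Mmp1, Mmp1b, Mmp7, Mmp10, Mmp13 and Mmp20 were under the filter. The promoters of the 4 genes tested are shown because neighbours moved in opposite directions. Each runs from 250 bases before to 50 bases after the start site, on the plus strand of chromosome 8 (RefSeq, GRCr8), at chr8:12866402-12866701, chr8:12925031-12925330, chr8:13008640-13008939 and chr8:13030502-13030801 for Mmp12, Mmp3, Mmp8 and Mmp27 in that order. Capitals mark exact matches, on either strand, to the AP-1 motif TGANTCA and to the TATA box letters TATAAA, which do not overlap.
Mmp12: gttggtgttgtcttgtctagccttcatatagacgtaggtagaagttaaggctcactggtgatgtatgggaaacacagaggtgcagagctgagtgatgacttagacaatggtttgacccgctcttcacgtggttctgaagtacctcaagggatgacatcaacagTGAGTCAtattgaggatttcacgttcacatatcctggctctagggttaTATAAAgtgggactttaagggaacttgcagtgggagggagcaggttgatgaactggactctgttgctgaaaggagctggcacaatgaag
Mmp3: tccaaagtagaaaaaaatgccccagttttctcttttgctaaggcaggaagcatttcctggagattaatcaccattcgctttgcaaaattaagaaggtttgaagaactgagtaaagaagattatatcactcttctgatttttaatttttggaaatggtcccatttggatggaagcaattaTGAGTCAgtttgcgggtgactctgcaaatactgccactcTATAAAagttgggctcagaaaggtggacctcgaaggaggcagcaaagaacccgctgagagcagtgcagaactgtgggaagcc
Mmp8: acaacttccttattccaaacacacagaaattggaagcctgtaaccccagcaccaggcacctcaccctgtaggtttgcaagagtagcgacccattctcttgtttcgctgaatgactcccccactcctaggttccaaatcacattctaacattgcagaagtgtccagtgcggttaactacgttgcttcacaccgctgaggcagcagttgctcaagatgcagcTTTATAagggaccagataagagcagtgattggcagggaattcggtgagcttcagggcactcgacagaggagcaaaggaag
Mmp27: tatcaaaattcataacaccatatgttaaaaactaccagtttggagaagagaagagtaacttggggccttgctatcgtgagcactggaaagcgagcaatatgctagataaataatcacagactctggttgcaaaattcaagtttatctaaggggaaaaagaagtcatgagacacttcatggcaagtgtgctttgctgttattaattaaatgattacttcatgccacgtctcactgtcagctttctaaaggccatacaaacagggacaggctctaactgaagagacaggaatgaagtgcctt

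The AP-1 letters began at position -71 from the start site in Mmp3 and -87 in Mmp12, and the TATA letters at -32 and -39. Mmp8 held the TATA letters on the other strand at -30 and no AP-1 match, and Mmp27 held neither. Of the other genes of the row, Mmp13 (-66), Mmp10 (-61), Mmp20 (-96) and Mmp7 (-80) each held 1 AP-1 match, Mmp1 held 2, and Mmp1b held none. Across all 33469 RefSeq promoters of this length 7.33% held an AP-1 match and 14.2% a TATA match. The 51 of 75 rat genes with a promoter there had 59 promoters, of which 15.3% and 28.8% did, from 9 and 16 genes. A match is only a stretch of letters, and whether a factor binds any of them was not measured. Fos, a partner in the AP-1 factor, was 1.52 higher at 3 months on the log2 scale without passing (adjusted p = 0.12) and rose at 6 months (log2 change 1.96 ± 0.63, adjusted p = 0.0333), while Jun did not pass at either stage. Fos and Jun were named here after their values were seen, and their part in the changes of this row was not tested.

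Gelatinase A, Mmp2, made mainly by stellate cells and fibroblasts, had 205, 224, 278, 118 and 183 normalised counts before diabetes, 283, 303, 283, 498 and 245 at 3 months, and lay between 194 and 377 (median 274, n = 6) at 6 months. It narrowly missed the threshold at 3 months (log2 difference 0.68 ± 0.24, adjusted p = 0.0591) and did not pass at 6 months (log2 difference 0.46 ± 0.23, adjusted p = 0.167). Mmp2 was called at 3 months without prediabetic replicate 3 (adjusted p = 0.0352) or 3-month replicate 5 (0.0451). Mmp19, a secreted protease found in many resting tissues, had 204 ± 6.32 normalised counts in prediabetic liver (mean ± SD, n = 5) and was lower in all 11 livers at 3 and 6 months without passing (log2 difference -0.40 ± 0.18, adjusted p = 0.132, and log2 difference -0.47 ± 0.17, adjusted p = 0.0605). At 6 months Mmp19 was called with equal column sums (0.0265), with the 2 compared groups only (0.0321) and without 6-month replicate 1 (0.0392). Collagenase Mmp13, the main rodent interstitial collagenase, was under the filter with a mean of 1.5 over all livers.

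The membrane-type metalloproteinases, which act at the cell surface, did not move together. Mmp15 had 1912, 1306, 1277, 2065 and 1197 normalised counts before diabetes, 2382, 1250.0, 1513 and 1238 at 2 weeks, 577, 722, 613, 1222 and 769.6 at 3 months, and lay between 452 and 1310.1 (median 759, n = 6) at 6 months. In 4 of 5 livers at 3 months and 5 of 6 at 6 months it was below every prediabetic liver. Mmp15 fell at both stages (log2 change -1.01 ± 0.26, adjusted p = 0.0124, and log2 change -0.99 ± 0.25, adjusted p = 0.00801). Mmp16 did the reverse: 42.6, 33.6, 37.3, 45.4 and 68.8 before diabetes, 72.9, 64.9, 58.8 and 59.4 at 2 weeks, 105, 80.2, 87.6, 85.4 and 82.6 at 3 months and between 53.2 and 102 (median 74.8, n = 6) at 6 months. The 3-month livers all exceeded the highest prediabetic liver, and at 6 months 5 of 6 did. Mmp16 rose by 0.97 ± 0.19 (adjusted p = 0.00227) at 3 months and by 0.77 ± 0.18 (adjusted p = 0.00546) at 6 months. Mmp14, which activates gelatinase A at the cell surface, did not pass at either stage (log2 difference 0.24 ± 0.24, adjusted p = 0.522, and log2 difference -0.14 ± 0.23, adjusted p = 0.712). Leaving out any liver, or any other setting tried, ended none of the calls of Mmp15 and Mmp16 against prediabetic rats.

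Adam8, a sheddase best known from leukocytes and osteoclasts, was low at 3 months and not at 6 months. It had 308, 687, 736, 472 and 1120.4 normalised counts before diabetes, 981, 462, 427 and 603 at 2 weeks and 79.99, 68.6, 33.2, 100.01 and 137 at 3 months, and lay between 106 and 1160.1 (median 550.5, n = 6) at 6 months. Every 3-month liver was below every earlier one, and only 6-month replicate 6 (106) came down into the 3-month range. Adam8 fell at 3 months against prediabetic rats (log2 change -2.98 ± 0.53, adjusted p = 0.00143) and against 2 weeks (log2 change -2.93 ± 0.56, adjusted p = 0.015), the latter call ending without 2-week replicate 1 (adjusted p = 0.0613). At 6 months it did not differ from prediabetic rats by the test (log2 difference -0.33 ± 0.51, adjusted p = 0.686). Between 6 and 3 months the log2 difference was 2.65 ± 0.51 (adjusted p = 0.146), and 6-month replicate 6 decided that miss: without it the adjusted p was 0.0077.

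The widely expressed shedding enzymes did not pass at any stage. Adam17, the enzyme that releases TNF and many growth factor ligands, had 692 ± 48.7 normalised counts before diabetes, 816 ± 113 at 3 months and 820.2 ± 136 at 6 months (mean ± SD), with log2 differences of 0.23 ± 0.12 (adjusted p = 0.186) and 0.23 ± 0.11 (adjusted p = 0.149). Adam10, which cuts Notch and cadherins, and Adam9 did not pass either, at 0.30 ± 0.16 (adjusted p = 0.205) and 0.077 ± 0.14 (adjusted p = 0.741) at 3 months and -0.023 ± 0.15 (adjusted p = 0.935) and -0.006 ± 0.13 (adjusted p = 0.981) at 6 months. Prediabetic replicate 2 was the lowest prediabetic liver for Adam9 (718), Adam10 (445) and Adam12 (3.25). Adam12, a marker of activated stellate cells, differed by 0.57 ± 0.64 (adjusted p = 0.574) at 3 months and -0.12 ± 0.61 (adjusted p = 0.909) at 6 months. Adam15 and Adam19, the latter also known as meltrin beta, did not pass at either stage.

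Adam23 has lost its catalytic residues and binds integrins. Its counts were 291, 111, 248, 211 and 198 before diabetes, 613, 517, 335, 301 and 385 at 3 months and between 213 and 548 (median 310.5, n = 6) at 6 months. The 3-month livers were all above the prediabetic ones. Adam23 rose at 3 months (log2 change 1.04 ± 0.30, adjusted p = 0.0221), a call that ended without prediabetic replicate 2 or 3-month replicate 1 or 2, and did not pass at 6 months (log2 difference 0.69 ± 0.28, adjusted p = 0.0881).

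Of the Adamts enzymes that cut the proteoglycans aggrecan and versican, Adamts4 and Adamts1 rose. Adamts4 had 52.9, 45.5, 49.2, 29.1 and 26.7 normalised counts before diabetes, 39.1, 28.5, 105 and 35.6 at 2 weeks and 343, 112, 125, 135 and 116 at 3 months, and lay between 69.4 and 158 (median 120.2, n = 6) at 6 months. All 11 livers at 3 and 6 months were above every prediabetic liver, with 3-month replicate 1 far above the others, and 2-week replicate 3 was already at 105. Adamts4 rose at 3 months (log2 change 1.91 ± 0.35, adjusted p = 0.0018) and 6 months (log2 change 1.42 ± 0.34, adjusted p = 0.00605), and kept both calls under every setting and omission tried. Adamts1 had 605, 374, 526, 518 and 1034 before diabetes, 2003, 1237, 910.3, 1336 and 556 at 3 months and between 835 and 1359.8 (median 1172, n = 6) at 6 months. It was above the prediabetic range in 3 of 5 and 5 of 6 livers. Adamts1 rose at 3 months (log2 change 0.94 ± 0.29, adjusted p = 0.0302), where any of 6 single omissions (adjusted p up to 0.0931) or a fit of the 2 compared groups only (0.0858) ended the call, and at 6 months (log2 change 0.99 ± 0.28, adjusted p = 0.0162), where none did. The versican-cutting enzymes Adamts5, Adamts9 and Adamts15 did not pass at either stage.

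Adamts2, which removes the amino propeptide of fibrillar procollagens, had 122, 84.6, 166, 61.6 and 85.6 normalised counts before diabetes, 148, 67.5, 148 and 155 at 2 weeks, 225, 148, 162, 277 and 165 at 3 months and between 126 and 241 (median 204, n = 6) at 6 months. All 11 livers at 3 and 6 months lay above 4 of the 5 prediabetic livers and overlapped with the highest. Adamts2 rose at 3 months (log2 change 0.95 ± 0.28, adjusted p = 0.025) and 6 months (log2 change 0.92 ± 0.27, adjusted p = 0.0192), and leaving out prediabetic replicate 4 ended both calls (adjusted p = 0.0766 and 0.0663). At 3 months omitting prediabetic replicate 2 or 5 or 3-month replicate 1 or 4 did so too. Adamts14, an enzyme of the same activity, was higher without passing (log2 difference 0.51 ± 0.20, adjusted p = 0.0828, and log2 difference 0.49 ± 0.19, adjusted p = 0.0737).

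Adamts13 cuts von Willebrand factor and is made in liver mainly by stellate cells. Prediabetic livers had 551, 418, 407, 386 and 599, the 3-month livers 785, 569, 797, 652 and 581, and the 6-month livers lay between 573 and 905 (median 675, n = 6). Adamts13 rose modestly, by 0.53 ± 0.15 (adjusted p = 0.0254) and 0.59 ± 0.15 (adjusted p = 0.00904), with overlap at both stages, and the 3-month call ended without prediabetic replicate 2, 3 or 4 or 3-month replicate 1 or 3 and with the 2 compared groups only (0.0506). Vwf, its substrate, rose at both stages as well (0.79, adjusted p = 0.0248, and 0.89, adjusted p = 0.0082). The 12 stellate cell markers had 6 genes that rose at each stage, beside 7.76% and 11.0% of all genes, and none that fell. They summed to 3869 to 5893 normalised counts in prediabetic livers, 5319.9 to 6916 at 2 weeks, 6352.5 to 8886 at 3 months and 5581 to 7970.1 at 6 months. The part of stellate cells in the changes of Adamts13, Adamts2 and Timp1 was not tested. Adamts10, which binds microfibrils, fell at 3 months (log2 change -0.52 ± 0.16, adjusted p = 0.0334), the call ending with equal column sums (0.0973), with the 2 compared groups only (0.0742) and without any of 7 of the 10 livers, and did not pass at 6 months (log2 difference -0.31 ± 0.15, adjusted p = 0.154).

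Adamtsl4 (ENSRNOG00000049385), which has no protease domain and binds fibrillin microfibrils, separated the later stages from the earlier ones. Its normalised counts were 948, 806, 1137, 683 and 763 before diabetes, 1236, 1003, 1413 and 1402 at 2 weeks and 3149.6, 2125, 2369, 2713 and 2046 at 3 months, and lay between 1844 and 4292 (median 2618, n = 6) at 6 months. All 11 livers at 3 and 6 months were above all 9 earlier livers, and 3 of the 4 livers at 2 weeks were above the highest prediabetic liver. Adamtsl4 rose at 3 months (log2 change 1.52 ± 0.21, adjusted p = 0.000185) and 6 months (log2 change 1.65 ± 0.20, adjusted p = 3.45e-05), a ratio of means of 2.86 and 3.25, and kept both calls under every setting and omission tried. At 2 weeks it did not pass (log2 difference 0.55 ± 0.22, adjusted p = 0.53). Fbn1, which encodes fibrillin, rose by 0.71 ± 0.16 (adjusted p = 0.00623) and 0.55 ± 0.15 (adjusted p = 0.0153). Adamtsl2, another fibrillin-binding member, did not pass at either stage.

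**Figure D3:**
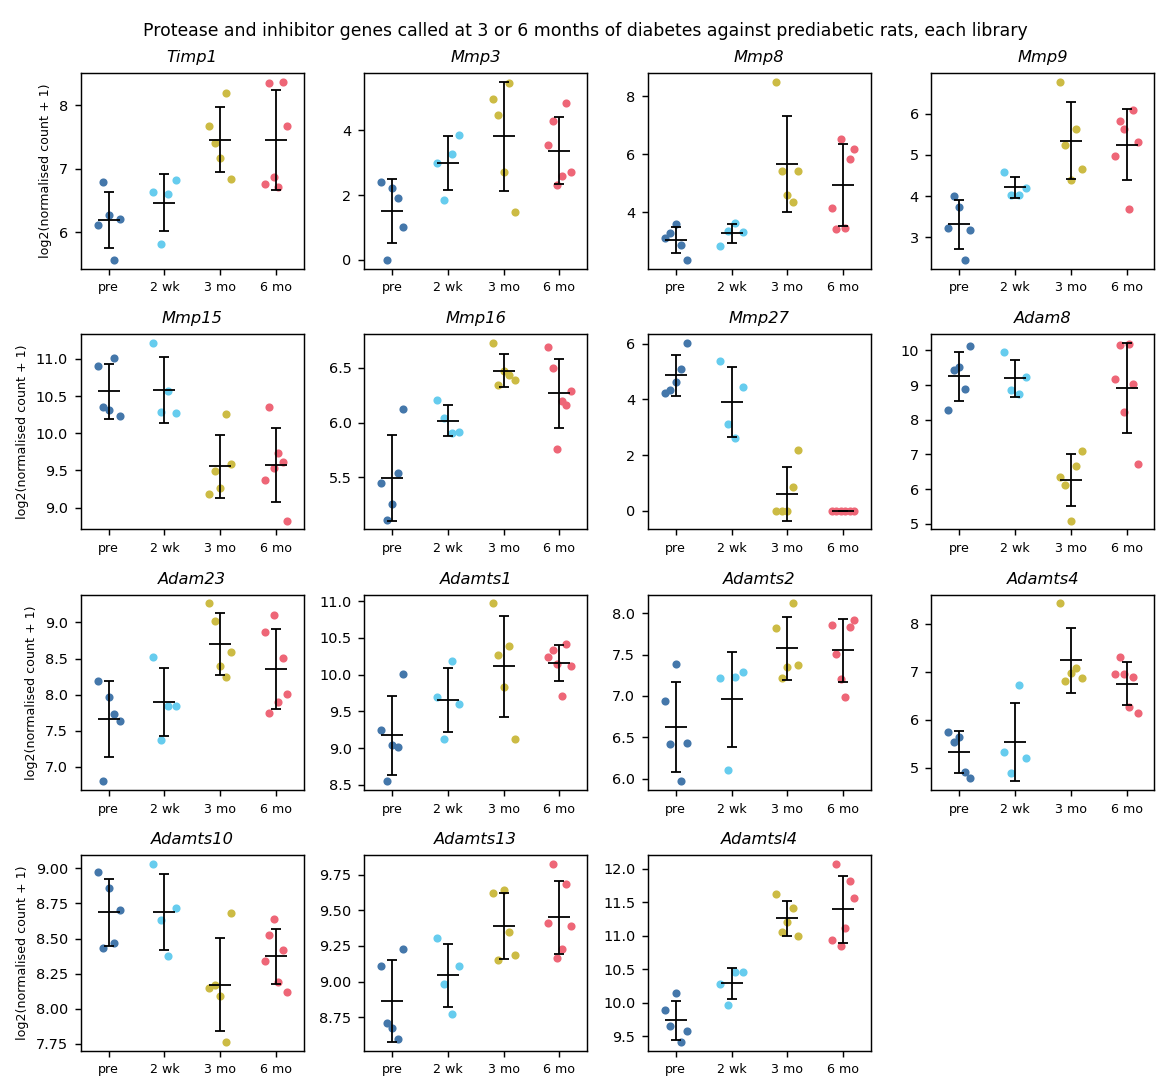
Log2(normalised count + 1) (y axis) of the 15 rat protease and inhibitor genes called at 3 or 6 months against prediabetic liver, by stage (x axis: pre, prediabetic, then 2 weeks, 3 months and 6 months). Points are livers, bars the mean ± SD. Mmp27 is at 0 in all 6 livers at 6 months, Adam8 is low in the 3-month group and in 1 liver at 6 months, and Adamtsl4 at 3 and 6 months lies above all earlier livers.

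The later stages were also set against 2 weeks, which asks whether a gene changed after diabetes had begun. At 3 months 4 of 44 genes were called (9.09% beside 2.35% of all genes): Adamts4 and Adamtsl4 rose (4.55% beside 1.15%), and Adam8 and Mmp27 fell (4.55% beside 1.20%). At 6 months 5 were called (11.4% beside 8.82%): Adamtsl4 (1.10, adjusted p = 0.00501), Adamts4 (1.22, adjusted p = 0.0392) and Adam1a (0.66, adjusted p = 0.0273) rose, 6.82% beside 4.66%, and Mmp15 (-1.02, adjusted p = 0.0225) and Mmp27 (-3.90, adjusted p = 0.000466) fell, 4.55% beside 4.16%. Adam1a, a fertilin subunit known from sperm, had 55.6, 64.9, 50.1 and 37.1 normalised counts at 2 weeks and lay between 67.2 and 102 (median 80.7, n = 6) at 6 months, with no overlap. The prediabetic livers had 75.0, 77.0, 55.5, 52.7 and 53.4, which overlapped the 6-month range, and Adam1a was not called against them at either later stage. At 6 months Adamtsl4 and Mmp27 kept their calls under every setting and omission in which they were tested. Adamts4 lost its call in 7 of 10 omissions (adjusted p up to 0.153), with no filter, with equal column sums and with the 2 compared groups only, and Adam1a in 5 of 10 omissions (up to 0.1), with equal column sums and with the 2 groups only. Mmp15 lost its call without 2-week replicate 1 (0.0949). At 3 months Adamts4 and Adamtsl4 each lost the call in 4 of 9 omissions (up to 0.117 and 0.133), and Mmp27 with the 2 compared groups only (0.0542). The counts moved accordingly: without 2-week replicate 1 the calls were Mmp27 alone at 3 months and Mmp27 and Adamtsl4 at 6 months. Without 2-week replicate 2, or without 3-month replicate 1, the 3-month calls were Adam8 and Mmp27, and without 6-month replicate 4 the 6-month calls numbered 8. With column sums made equal, which lowered the median of all genes by 0.18 in the 6-month comparison, the split of 3 higher and 2 lower became 1 and 3. Between 6 and 3 months no gene of these families passed (0% beside 0.0147% of all genes, limma), and 4 of 44 had an unadjusted p under 0.05, beside 1058 of all 13640.

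Plasminogen activators and their receptor, which turn on plasmin and through it metalloproteinase precursors, were tested as companions. Of 10 plasminogen activation genes, 4 rose and 1 fell at 3 months and 5 rose at 6 months. Over all genes tested, 7.76% rose and 8.72% fell at 3 months, and 11.0% rose and 10.0% fell at 6 months. Urokinase Plau had 157 ± 12.8 normalised counts before diabetes, 337 ± 86.4 at 3 months and 353 ± 128 at 6 months (mean ± SD), and rose by 1.07 ± 0.21 (adjusted p = 0.003) and 1.09 ± 0.20 (adjusted p = 0.00122). Its receptor Plaur rose by 1.31 ± 0.28 (adjusted p = 0.00504) and 1.53 ± 0.27 (adjusted p = 0.000846), and Klkb1, which encodes plasma prekallikrein, by 0.75 ± 0.12 (adjusted p = 0.000495) and 0.88 ± 0.11 (adjusted p = 5.87e-05). F12, the coagulation factor that activates prekallikrein, fell at 3 months by 0.32 on the log2 scale (adjusted p = 0.0285). The median of the 10 genes at 3 months was 0.55, beside 0.02 for all genes tested. Among 13 other inhibitors and regulators, Cd44, a docking site for Mmp9, rose at both stages (1.07, adjusted p = 0.016, and 0.97, adjusted p = 0.0172), and Serpinh1, a collagen chaperone, at 3 months (0.58, adjusted p = 0.027).

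Of 23 matrix substrates tested, from a list chosen with earlier results of these data known, 12 rose at 3 months and 6 at 6 months, with none that fell. Over all genes 7.76% rose and 8.72% fell at 3 months, and 11.0% rose and 10.0% fell at 6 months. Decorin, Dcn, which binds collagen fibrils, had the lowest adjusted p at both stages (log2 change 2.08 ± 0.36, adjusted p = 0.00109, and log2 change 2.36 ± 0.34, adjusted p = 0.000154), followed at 3 months by Col5a2 (0.81, adjusted p = 0.00591) and Fbn1. At 6 months Lamb1, a laminin chain, was called next (0.76, adjusted p = 0.00555), and then Vwf. Among 10 procollagen processing genes 2 rose at 3 months, Pcolce (3.19, adjusted p = 0.00234), which enhances removal of the carboxy propeptide, and Plod2, a lysyl hydroxylase (0.87, adjusted p = 0.0483). At 6 months Pcolce rose by 4.36 ± 0.58 (adjusted p = 9.12e-05), and P4ha2 and Lox fell by 0.44 and 2.50 on the log2 scale (adjusted p = 0.014 and 0.0427). Of 15 other matrix-degrading hydrolases, 4 rose and 1 fell at each stage: Ctsz and Ctsl, lysosomal cathepsins, rose at both (Ctsl by 1.10, adjusted p = 0.00213, and 1.12, adjusted p = 0.000848), and Ctsb fell at 3 months and Hyal1 at 6 months. A fall of 1 of 15 is near the shares of all genes that fell.

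The partners of Adam10 and Adam17 had 0 of 11 calls at 3 months (limma, with 2 at an unadjusted p under 0.05), and at 6 months 2 rose, Rhbdf2, an iRhom that carries Adam17 to the surface (1.10, adjusted p = 0.023), and Tspan15, a tetraspanin of Adam10 (0.73, adjusted p = 0.0303), while the convertase Pcsk7 fell by 0.23 on the log2 scale (adjusted p = 0.0473). Of 21 Adam substrates, 5 rose and 2 fell at 3 months and 7 rose and 3 fell at 6 months. Over all genes 7.76% rose and 8.72% fell at 3 months, and 11.0% rose and 10.0% fell at 6 months, so the falls in both lists were near the background. Cdh1, E-cadherin, rose by 1.08 ± 0.13 (adjusted p = 4.28e-05) and 1.17 ± 0.12 (adjusted p = 6.33e-06), and Ghr, the growth hormone receptor, fell by 0.98 and 1.27 on the log2 scale (adjusted p = 0.00315 and 0.000199). Of 25 transcription and cytokine inputs, 7 rose at each stage. Osmr, the oncostatin M receptor, rose by 3.24 ± 0.57 (adjusted p = 0.00141) and 2.88 ± 0.55 (adjusted p = 0.00147), and Tgfb2, a transforming growth factor, by 1.20 ± 0.24 (adjusted p = 0.00282) and 1.47 ± 0.23 (adjusted p = 0.000257).

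Of 11 Kupffer cell and macrophage markers tested, 9 rose at 3 months and 9 at 6 months, beside 7.76% and 11.0% of all genes, and their sum was 14311 to 19598 normalised counts in prediabetic livers, 13477 to 18052 at 2 weeks, 20427 to 44036 at 3 months and 20104 to 59095 at 6 months, so both later groups lay above the earlier ones. Of 9 bile duct markers 1 and 5 rose. Endothelial markers had 2 and 1 of 11 that rose and lymphocyte markers 1 of 9 at each stage, which is near those shares except for endothelium at 3 months. Hepatocyte markers had 2 of 11 that fell at 3 months, and 1 that rose and 1 that fell at 6 months (8.72% and 10.0% of all genes fell). The part of these cells in the protease changes was not tested.

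In mouse liver 1 of these genes passed the test after LNA-29. The miR-29 family is known for repressing collagens, elastin and other matrix genes, and its members share the seed that pairs with targets, so the sequences of the family are shown beside the results for its inhibitor. The rat mature forms from RefSeq (GRCr8) are shown, 5′ to 3′, with the seed, bases 2 to 8, in capitals.
rno-miR-29a-3p: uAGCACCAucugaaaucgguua
rno-miR-29b-3p: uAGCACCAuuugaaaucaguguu
rno-miR-29c-3p: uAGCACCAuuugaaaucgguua

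All 3 carry the seed AGCACCA and differ only outside it. With LNA-29 against control, 1 of 44 genes was called (2.27%) beside 2.43% of all 14596 genes tested, a share no higher than the background. The called gene was higher, beside 1.57% of all genes that rose and 0.863% that fell. The median log2 change was 0.01 over the 44 genes and 0.00 over all genes. An unadjusted p under 0.05 (limma) was found for 11 of the 44 and for 2809 of all 14596 genes, which are similar shares.

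Adamts12, which cuts cartilage oligomeric matrix protein, was the gene called. Control livers lay between 4.32 and 17.05 (median 9.79, n = 6), and LNA-29 livers had 26.5, 23.5, 19.8, 25.9 and 36.1 normalised counts. Every LNA-29 liver was above every control liver. Adamts12 rose at the edge of the threshold (log2 change 1.32 ± 0.32, adjusted p = 0.0497), a value of 0.83 with a pseudocount of 10, and the call ended without any of 10 of the 11 livers (adjusted p up to 0.133, control replicate 6 being the exception), with no filter (0.0902), with equal column sums (0.0709) and with no variance trend (0.058). Adamts7, its close relative with the same substrate, was higher without passing: 335, 338, 251, 601 and 279 after LNA-29, against controls between 131 and 273 (median 189, n = 6) (log2 difference 0.82 ± 0.24, adjusted p = 0.0888).

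Mmp12, macrophage elastase, missed the threshold. LNA-29 livers had 51.8, 35.1, 113, 44.5 and 55.6 normalised counts, while 5 of 6 controls lay between 4.02 and 12.4 and control replicate 5 held 60.2. That control decided the result: Mmp12 was 2.11 higher on the log2 scale (adjusted p = 0.0539) with all livers and 2.55 higher (adjusted p = 0.00448) without it, and without LNA-29 replicate 2 the adjusted p was 0.0467. Trem2, a receptor of lipid-associated macrophages, was the only one called of 15 Kupffer cell and macrophage markers tested (1.34, adjusted p = 0.0388). Their sum was 9364 to 12742 in controls and 8384 to 16221 after LNA-29, so the groups overlapped, and the part of macrophages in the Mmp12 difference was not tested. Control replicate 5 had a macrophage marker sum of 10656, inside the range of the other controls, and the highest neutrophil marker sum of the 11 mice, 276. Of 12 stellate cell markers and 4 neutrophil markers tested none was called (limma), and 1 and 0 had an unadjusted p under 0.05.

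**Figure D4:**
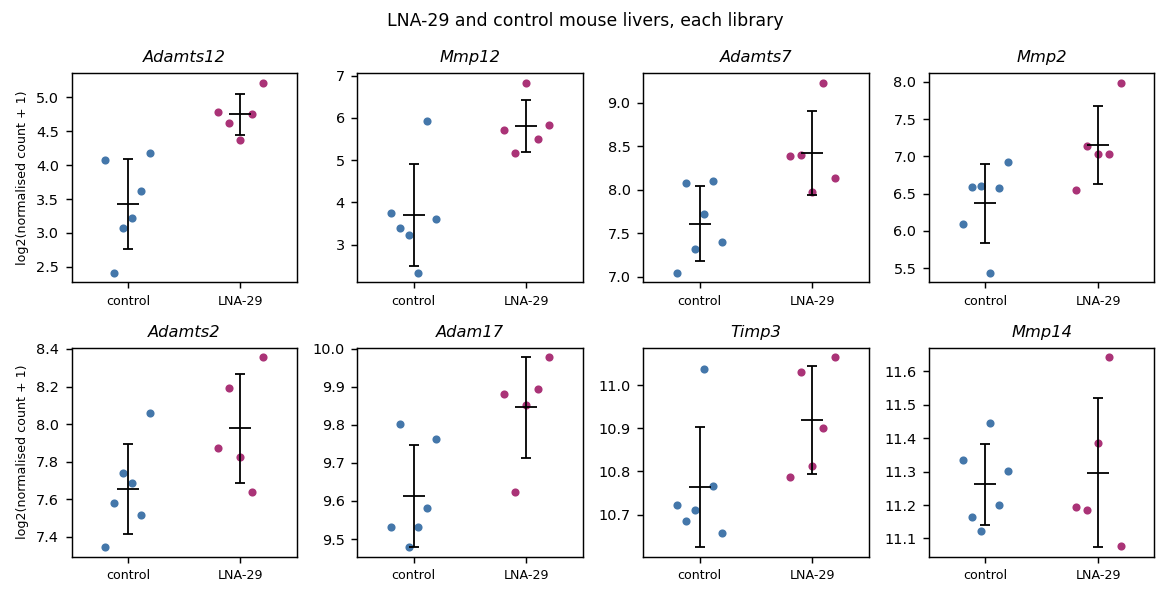
Log2(normalised count + 1) (y axis) of 8 protease and inhibitor genes in control (n = 6) and LNA-29 (n = 5) mouse livers. Points are livers and bars the mean ± SD. The groups do not overlap for Adamts12, and 1 control liver lies with the LNA-29 livers for Mmp12.

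The other protease and inhibitor genes did not pass and lay on both sides of 0. Mmp2 had 92.3, 140.1, 130.1, 130.1 and 253 normalised counts after LNA-29 and lay between 42.3 and 121 (median 94.96, n = 6) in controls (log2 difference 0.78 ± 0.28, adjusted p = 0.153), with 4 of 5 LNA-29 livers above all controls. Adam17 was above all controls in 4 of 5 livers (log2 difference 0.23 ± 0.082, adjusted p = 0.145), and Adamts2 in 2 of 5 (log2 difference 0.32 ± 0.15, adjusted p = 0.257). Adam12, read at low counts of 22.6, 7.12, 19.6, 16.7 and 26.6 after LNA-29, did not pass (log2 difference 1.06 ± 0.49, adjusted p = 0.259). Lower without passing were Adamtsl2 (log2 difference -0.44 ± 0.17, adjusted p = 0.183), Adam15 (log2 difference -0.41 ± 0.18, adjusted p = 0.238) and Mmp19 (log2 difference -0.25 ± 0.12, adjusted p = 0.281). Of the inhibitors, Timp3 had 1942 ± 169.9 after LNA-29 and 1745 ± 180.3 in controls (mean ± SD; log2 difference 0.16 ± 0.079, adjusted p = 0.305), and Timp2 did not pass (log2 difference -0.16 ± 0.15, adjusted p = 0.627). Timp1 was between 0 and 3.82 normalised counts in all 11 mice, under the filter, so no change of it could be tested. Mmp14 (log2 difference 0.035 ± 0.10, adjusted p = 0.888), Mmp9 (log2 difference 0.53 ± 0.33, adjusted p = 0.412), Mmp15 (log2 difference -0.15 ± 0.18, adjusted p = 0.707) and Adam10 (log2 difference -0.059 ± 0.081, adjusted p = 0.748) did not pass either.

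Of 23 matrix substrates tested, 7 rose after LNA-29 and 16 did not pass, beside 1.57% of all genes that rose. The list was chosen with earlier results of these data known, so the count is not independent of them. The sum over all 28 listed substrates was 118697 to 135873 normalised counts after LNA-29 and 127094 to 165542 in controls, lower by the median and overlapping. Elastin, Eln, had 259 ± 57.8 normalised counts against 72.2 ± 13.4 in controls and rose by 1.82 ± 0.17 (adjusted p = 0.000202), and Lamc1 and Nid1, basement membrane proteins, rose by 0.51 ± 0.076 (adjusted p = 0.00566) and 0.56 ± 0.10 (adjusted p = 0.0158). Sparc, a matrix protein that binds collagen, rose from 1770.1 ± 138 to 4250.4 ± 578 (1.26, adjusted p = 2.05e-05) as the 1 called gene among 12 other inhibitors and regulators. Loxl2, a lysyl oxidase, rose (0.69, adjusted p = 0.0332), and Tgfbr1, a receptor for transforming growth factor, fell by 0.37 on the log2 scale (adjusted p = 0.046). The 11 plasminogen activation genes, 12 partners of Adam10 and Adam17, 22 Adam substrates and 14 other hydrolases had no call (limma), with 0, 2, 5 and 2 genes at an unadjusted p under 0.05 in that order. Over all genes 2809 of 14596 had such a p.

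Genes called in diabetic rats had these values in the mice. Adamtsl4 had 117 ± 13.98 normalised counts after LNA-29 and 157 ± 68.7 in controls (log2 difference -0.33 ± 0.24, adjusted p = 0.492), Adamts4 differed by -0.41 ± 0.25 (adjusted p = 0.397), and Mmp27, at or near 0 in the rats at 3 and 6 months, was read in every mouse and differed by 0.25 ± 0.45 (adjusted p = 0.808). In the rats, Adamts12 and Adamts7 did not pass at 3 months (0.22, adjusted p = 0.504, and -0.13, adjusted p = 0.799). The 2 tables are of different species and sex and were normalised separately, and no test was made across them.

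Genes under the filter made up 31 of 75 in the rat and 40 of 84 in the mouse table. In the rat 9 were at 0 in all 20 livers and 18 had a mean under 1, Adam genes known from testis such as Adam5 and Adam30 among them. In the mouse 17 were at 0 in all 11 livers and 27 had a mean under 1. Adam8, Mmp8, Mmp16, Timp1, Adam28 and Mmp24 passed in the rat alone, and Adam33, Adamts3, Adamtsl1, Adamtsl5, Mmp28 and Mmp7 in the mouse alone.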

How the data were processed

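Polyadenylated RNA from 20 rat livers and 11 mouse livers was analysed; replicates are the livers that the labels number within a group. The values are the authors' deposited normalised counts, a depth-scaled signal per gene, 1 table per species. The submitters' processing notes name DESeq2, Salmon and STAR with 4 genome builds (hg19, mm9, mm10, rn6), giving neither version nor role, and how the counts were scaled and whether strand was used were not given in the sources used here. Taking the commonest value near 1 in a library as the worth of 1 read, 47.8 to 87.8% of values under 10 were whole multiples of it within 0.02, too few to recover reads for a count test, and the approximate depth was 25.8 to 54.0 × 1e6 reads per library, lowest in 2-week replicates 4 and 2 (25.8 and 32.0), where 59.1% and 65.5% were whole. All columns were mapped to samples.

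Values were tested as log2(normalised count + 1) with limma 3.58.1 (R 4.3.3), with a variance trend and all groups of a table in 1 fit, for genes with a mean of at least 10. Adjusted p-values are Benjamini-Hochberg over all genes tested, and 0.05 was the threshold. The fold changes are on that log2 scale and understate the change of low genes. Figures were drawn with matplotlib 3.10.9. Alternatives were a pseudocount of 10, no filter, a mean of at least 50, median-of-ratios rescaling, equal column sums, no variance trend, a replicate block, the 2 compared groups only and leaving out each liver.

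The genes and the lists were chosen with earlier results of these data known. Named were 24 listed genes, every other called gene (up to 12 per comparison), and up to 3 called genes per direction from each companion list, by adjusted p. Fos, Jun, Vwf and Fbn1 where outside that rule, and other uncalled protease genes, were chosen after their values were seen. Marker genes of single cell types were named from their lists.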

Additional observations from a re-analysis of the deposited data

Results flagged for a closer look

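Genes of these families that changed between diabetic stages were Adamts4 (1.70), Adamtsl4 (0.97), Adam8 (-2.93) and Mmp27 (-3.29) on the log2 scale at 3 months against 2 weeks, and Adamtsl4 (1.10), Adamts4 (1.22), Adam1a (0.66), Mmp15 (-1.02) and Mmp27 (-3.90) at 6 months against 2 weeks. In each, the difference between the 2 stages was itself tested.

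Single livers stood apart from their group on the log2 scale by Dixon's criterion. In the rats these were 3-month replicate 4 for Mmp12 (450.3 normalised counts), 3-month replicate 1 for Adamts4 (343) and Mmp8 (356), prediabetic replicate 2 for Adam9 (718), Adam10 (445) and Adam12 (3.25), and 2-week replicate 2 for Adamts2 (67.5). In the mice they were control replicate 4 for Timp3 (2102) and control replicate 6 for Adamts13 (177). Of 119 rat and 42 mouse groups examined, 7 and 2 were found, and chance alone gives about 1 in 20.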

How the results depend on the processing

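Over all settings tried, including leaving out single livers, the counts of protease and inhibitor genes called ranged from 9 to 16 at 3 months and from 8 to 13 at 6 months against prediabetic rats (9 to 12 over omissions of a liver), beside 15 and 11, and the count at 2 weeks was 0 throughout. Against 2 weeks the counts of 4 and 5 ranged over omissions from 1 to 6 at 3 months and from 2 to 8 at 6 months, and were 2 and 3 with the 2 compared groups only. Between 6 and 3 months the count was 0 or 1, and the replicate block gave 1 (Adam8). After LNA-29 the count was 0 or 1 over omissions, and 0 with no filter, a mean of at least 50, equal column sums, no variance trend or the replicate block.

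Replicate numbers do not pair the animals: of 27 same-number rat pairs 9 had a correlation over 0.1 (range -0.184 to 0.216) and of 5 mouse pairs 2 did (-0.0769 to 0.125), and 0 rat libraries and 1 mouse library correlated best with their own number. With the replicate block, genes that had not passed changed sign: Mmp15 (-0.010) and Adam8 (0.063) at 2 weeks, Adam9 (0.052), Adam10 (0.0068), Adam8 (0.11), Adam12 (0.29) and Adamts9 (0.042) at 6 months, and Adamts13 (0.013) after LNA-29. The block also ended the calls of Adamts1 at 3 months (adjusted p = 0.0537) and Mmp8 at 6 months (0.115) against prediabetic rats, of Adamtsl4 at 3 months (0.0739) and Mmp15 at 6 months (0.0792) against 2 weeks, and of Adamts12 after LNA-29 (0.0727). The block left 6-month replicate 6 of the rats and control replicate 6 of the mice, which have no partner number, without weight. Equal column sums turned Adam8 at 2 weeks (0.025), Adam15 at 6 months (-0.033) and Adamts13 after LNA-29 (0.014).

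Leaving out 1 liver turned the sign of other uncalled log2 differences, whose omission ranges were as follows. At 2 weeks they were -0.19 to 0.42 for Adamts4, -0.11 to 0.11 for Adamts10, -0.19 to 0.14 for Mmp15 and -0.30 to 0.17 for Adam8. At 3 months they were -0.30 to 0.97 for Mmp12, -0.071 to 0.15 for Adam9 and -0.10 to 0.13 for Adam15. At 6 months they were -0.22 to 0.074 for Mmp14, -0.15 to 0.067 for Adam9, -0.16 to 0.086 for Adam10, -0.58 to 0.11 for Adam8, -0.68 to 0.29 for Adam12, -0.034 to 0.22 for Adam15 and -0.23 to 0.15 for Adamts9. After LNA-29 they were -0.052 to 0.090 for Mmp14, -0.22 to 0.037 for Mmp15, -0.080 to 0.26 for Adamts9 and -0.066 to 0.057 for Adamts13. The cause of these turns was not tested. Rescaling by median of ratios changed no value, because the deposited counts already have factors of 1. Depth is known only approximately, and counts of single reads were not recovered, so the counting error of low genes such as Mmp3, Mmp8, Mmp12 and Mmp27 was not separated from the spread between livers.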
